A study of Mus musculus with 67 samples.

Results

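The epiblast between E4.75 and E5.0 is described here from 6 wild-type mouse RNA-seq libraries, 3 of each age, chosen by their labels from a series of 67 libraries. The E4.75 group and the E5.0 group are the ones whose titles carry no in vivo suffix, so a separate E5.0 epiblast group labelled in vivo was not part of the comparison. Embryos of the line carried EGFP driven by the Pdgfra promoter, active in primitive endoderm, to help separate the lineages. The protocols describe embryos taken from the decidua or from culture in Matrigel, and which of these gave each unsuffixed group is not stated. About 10 to 100 cells made 1 library from a cytoplasmic lysate, their cDNA was amplified for 17 cycles, and the labels state 3 biological replicates per group without saying how embryos were pooled. The p-values therefore measure spread between libraries, pooled within the 23 groups of all 67 libraries and not taken from these 6 alone. The root mean square SD of log2 values was 0.277 in Epi of E4.75, 0.477 in Epi of E5.0 and up to 1.036 in other groups.

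The epiblast is the tissue of the implanting mouse embryo from which the fetus itself forms. As the blastocyst implants, its pluripotent cells leave the naive state of the inner cell mass, arrange into a polarised rosette on a basement membrane and enter a formative state that later allows them to form the germ layers and germ cells. Neighbouring tissues are the primitive endoderm, which covers the epiblast, and the polar trophectoderm, which grows into the extra-embryonic ectoderm (ExE) and sends BMP signals to the epiblast. Pou5f1 is required for pluripotency, and Otx2 is a homeobox factor that directs the exit from the naive state.

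The labels were first set against lineage markers, all in TPM, a transcript's length-scaled share of its library. Pou5f1 (chromosome 17, 35506018 to 35510772, GRCm38) stood at 165, 145 and 162 TPM at E4.75 and 187, 146 and 134 TPM at E5.0, so the groups overlapped (log2 difference -0.03 ± 0.41, adjusted p = 1, where ± is the standard error in limma's fit). Otx2 (chromosome 14, 48657677 to 48673819) stood at 78.3, 63.0 and 71.8 TPM at E4.75 and 46.3, 38.8 and 52.5 TPM at E5.0. All 3 Otx2 values were lower at E5.0, and the difference did not pass the test (log2 difference -0.62 ± 0.40, adjusted p = 0.39). Both genes were thus present in every library of both ages.

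The same libraries held trophoblast transcripts. Elf5, an ETS factor of trophoblast stem cells and ExE, stood at 84.8, 79.1 and 81.6 TPM at E4.75 and 115, 82.8 and 87.8 TPM at E5.0, with overlapping groups (log2 difference 0.20 ± 0.24, adjusted p = 0.74). Hand1, a helix-loop-helix factor of differentiating trophoblast, stood at 105, 102 and 92.3 TPM at E4.75 and 103, 91.4 and 108 TPM at E5.0 and also overlapped (log2 difference 0.01 ± 0.33, adjusted p = 1). In the E4.75 group labelled ExE, Elf5 was 198 ± 12.5 TPM and Hand1 278 ± 7.57 TPM (SD, n = 3), so Epi of E4.75 held 41.2% and 35.95% of those levels and Epi of E5.0 held 47.9% and 36.4%. The labelled primitive endoderm of E4.75 held Elf5 at 0 to 0.346 TPM and Hand1 at 0.182 to 0.246 TPM. Of 10 giant cell markers, Prl2c2, Prl3b1, Ctsq, Ctsj and Psg21 were listed at 0 in all 6 Epi libraries, and Prl3d1 reached at most 1.09 TPM. The primitive endoderm factor Gata6 was near the floor, at 3.14, 2.07 and 2.15 TPM at E4.75 and 0.879, 0 and 0 TPM at E5.0. Not all genes of that lineage were, and a list of 20 summed to 662 to 688 TPM at E4.75 and 287 to 316 TPM at E5.0. In bulk samples such as these, fewer cells of a type and less RNA per cell cannot be told apart.

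**Figure D1:**
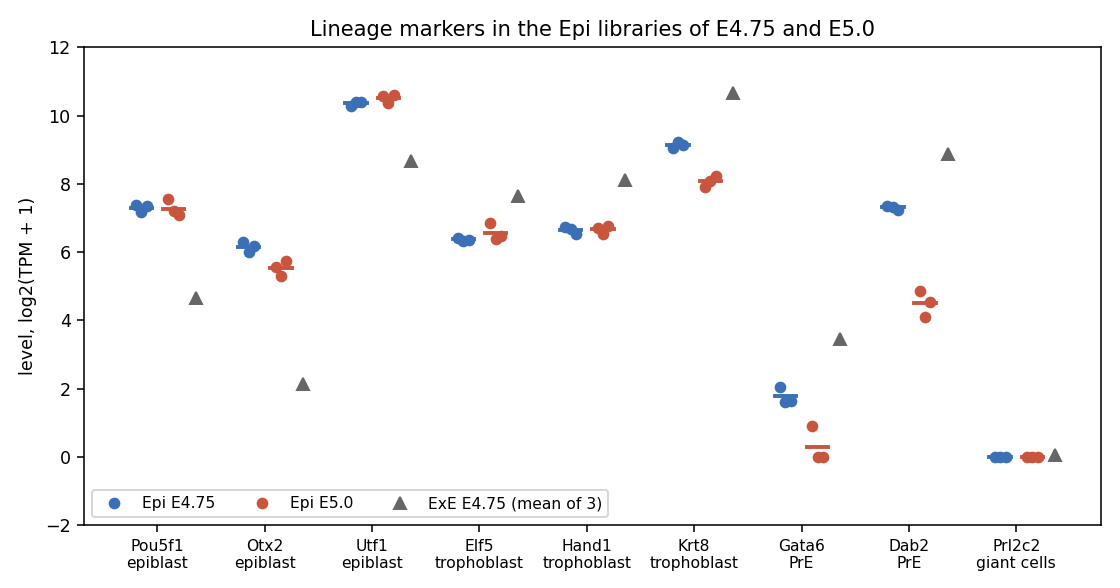
Level of lineage markers, as log2(TPM + 1) on the vertical axis, in the 3 Epi libraries of E4.75 (blue) and of E5.0 (red). Points are libraries, horizontal bars are group means, and grey triangles are means of the 3 ExE libraries of E4.75. Pou5f1, Elf5 and Hand1 overlap between the ages, Krt8, Gata6 and Dab2 lie lower at E5.0 and Prl2c2 lies at 0.

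Replicate 1 of E5.0 stood apart from the other E5.0 libraries in some summary values. Between 11267 and 11452 genes reached 1 TPM at E4.75 and between 10422 and 11142 at E5.0. Genes listed at 0 numbered 9383 to 9871 at E4.75, and 10192, 11597 and 11614 in E5.0 replicates 1, 2 and 3. Replicate 1 of E5.0 also had the lowest share of Rn45s, the ribosomal RNA precursor, at 0.370% of its TPM against 1.17% and 1.19% in the other two, and the highest share of Actb, at 0.843% against 0.513% and 0.467%. Replicate 1 of the E5.0 primitive endoderm stood apart in the same way. Its Rn45s share was 0.468% against 1.22% and 1.14%, and its Actb share 1.16% against 0.692% and 0.704%. Pearson correlations of log2(TPM + 1) across genes within an age ran from 0.966 to 0.989. Read depth is unknown, since TPM keeps none.

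Of 15567 genes tested with limma, 1184 (7.61%) were called, 218 of them higher at E5.0 (1.4%) and 966 lower (6.21%). A call required a Benjamini-Hochberg adjusted p under 0.05 and a difference of at least 1 in log2(TPM + 1). On that scale a change in a weakly expressed gene looks smaller than its ratio. The median difference over all genes tested was -0.06. Falls thus made up most calls, and 411 of the 966 genes that fell had a mean under 10 TPM at E4.75, while 237 were listed at 0 in at least 1 E5.0 library. After quantile normalization, which forces all libraries to 1 distribution, 334 genes were called higher and 796 lower, which moved the share of rises among calls from 18.4% to 29.6%. In a fit of Epi groups only, 135 were higher and 592 lower, and with library weights 456 and 1353. Without replicate 1 of E5.0, 193 were higher and 1155 lower.

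**Figure D2:**
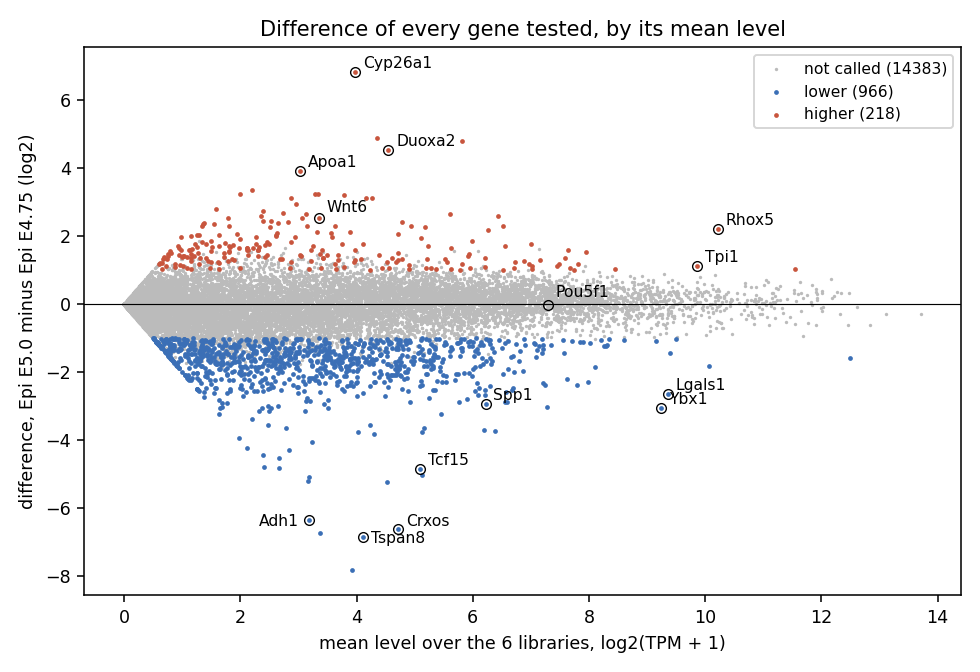
Difference of each of the 15567 tested genes, E5.0 minus E4.75 in log2 on the vertical axis, against its mean log2(TPM + 1) over the 6 libraries. Red points were called higher (218), blue points lower (966) and grey points neither, and circled genes are named. Cyp26a1 is the highest named point and Pou5f1 lies on the zero line.

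Cyp26a1, the cytochrome P450 that degrades retinoic acid, showed the largest rise among the genes of the naming rule. The gene (chromosome 19, 37697798 to 37701536) stood at 0.601, 0.206 and 0.663 TPM at E4.75 and 173, 165 and 163 TPM at E5.0. No E4.75 library reached 1 TPM and every E5.0 library exceeded 160 TPM (log2 difference 6.83 ± 0.32, adjusted p = 1.9e-23). Adh1 (chromosome 3, 138260991 to 138290698), an alcohol dehydrogenase that oxidises retinol among other alcohols, went the other way. It stood at 83.9, 89.7 and 71.1 TPM at E4.75 and was listed at 0 in all 3 E5.0 libraries (adjusted p = 2.2e-22), so no fold is given. These genes act at opposite ends of retinoid turnover, 1 on the precursor and the other on the active product.

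The promoter of Cyp26a1 is a textbook target of retinoic acid receptors, and its sequence is shown because this gene had the largest rise among the named genes. The window runs from chr19:37697558-37697797 on GRCm38.p6, plus strand, from RefSeq, and ends just before the first annotated transcribed base. Capitals mark a direct repeat of the half-site AGTTCA with 5 bases between its copies, read on the minus strand.
Cyp26a1: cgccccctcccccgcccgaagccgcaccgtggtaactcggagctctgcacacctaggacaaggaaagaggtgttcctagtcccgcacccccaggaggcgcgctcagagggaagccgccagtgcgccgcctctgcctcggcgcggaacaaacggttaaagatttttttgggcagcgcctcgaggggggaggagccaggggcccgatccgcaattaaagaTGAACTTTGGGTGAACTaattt
The match lies 16 to 32 bases before the RefSeq start. Searched on both strands, the motif was found in 8 of 32851 RefSeq promoter windows (0.0244%), and Cyp26a1 was the only one of 21 retinoid genes with a window that held it. Only these exact letters, the ones that the Cyp26a1 promoter carries, were searched, with no variant of the half-site allowed. Both counts depend on that choice and are a description and no support. The match describes these letters, not a site of binding.

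A list of 28 retinoid genes was drawn up after the values of Cyp26a1 and Adh1 were seen. Of its 23 tested members 3 were called higher, Cyp26a1 among them, against 1.4% of all genes, and 2 lower, Adh1 and Rdh13, against 6.21%, with a median of 0. Leaving out 1 library at a time left 1 or 2 called in each direction. The receptors Rara and Rarg stood at 14.6, 8.19 and 5.91 TPM and 19.8, 9.54 and 17.4 TPM at E5.0, overlapping with E4.75 (adjusted p = 0.82 and adjusted p = 0.94). Crabp2, which carries retinoic acid to its receptors, stood at 78.9, 68.9 and 65.7 TPM at E4.75 and 65.3, 57.3 and 68.4 TPM at E5.0 (log2 difference -0.16 ± 0.52, adjusted p = 0.94). Aldh1a2, which makes retinoic acid, reached at most 1.68 TPM in any of the 6 libraries.

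Cyp26a1 was high at E5.0 but not throughout the later epiblast. The E4.5 group stood at 0.471 ± 0.739 TPM and the unsuffixed E5.25 group at 69.4 ± 6.42 TPM. The groups labelled in vivo stood at 22.2 ± 6.30 TPM at E5.0 and 0.312 ± 0.162 TPM at E5.25 (SD, n = 3 each), lower than the unsuffixed groups of those ages, with no test made of that difference. In primitive endoderm it was 239.7 ± 21.6 TPM at E4.75 and 381 ± 12.2 TPM at E5.0, above Epi at both ages. Of the 20 primitive endoderm genes 13 were called lower in Epi, and of 16 visceral endoderm secretory genes 3 were called higher, Apoa1 and Pga5 among them, and 2 lower. The share of primitive endoderm RNA in the Cyp26a1 value was not tested.

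**Figure D3:**
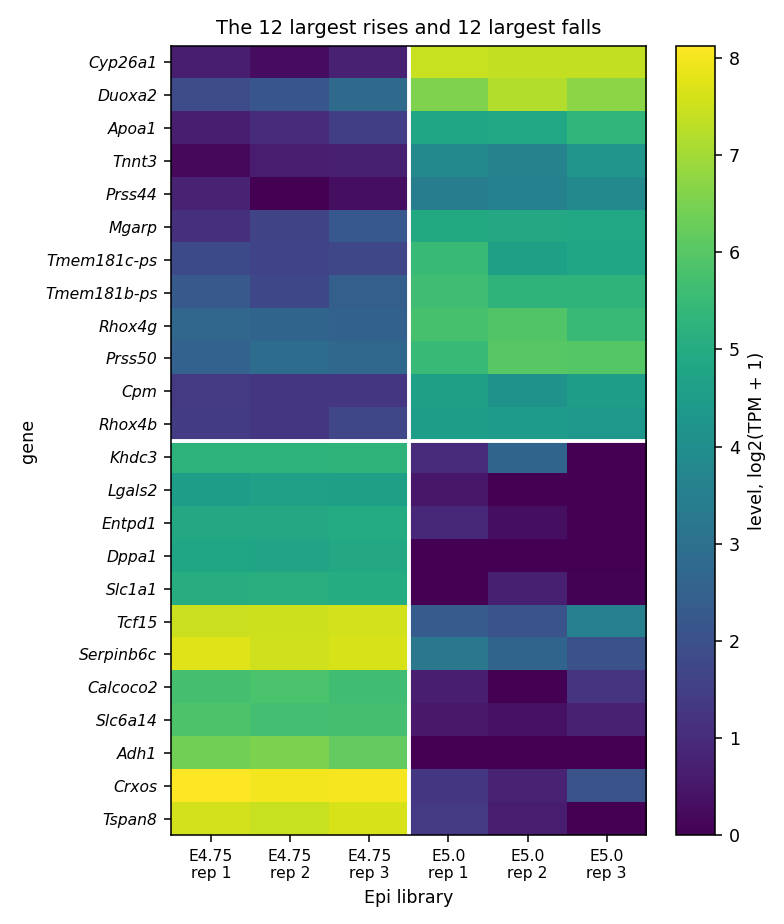
Level of the 12 genes with the largest rise and the 12 with the largest fall in each of the 6 Epi libraries, as log2(TPM + 1) by colour, genes in rows and libraries in columns. In all 24 genes the 3 libraries of one age lie on one side of the 3 of the other, a condition of the rule that chose them.

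Among the other large rises were genes of several kinds. Duoxa2 (chromosome 2, 122298900 to 122302885), the maturation factor of a hydrogen peroxide-producing dual oxidase, stood at 2.63, 3.54 and 5.98 TPM at E4.75 and 91.8, 145 and 104 TPM at E5.0 (log2 difference 4.53 ± 0.40, adjusted p = 5.9e-13). Apoa1 (chromosome 9, 46228580 to 46230466), the main protein of high-density lipoprotein, stood at 0.597, 1.03 and 1.82 TPM at E4.75 and 26.3, 28.2 and 40.1 TPM at E5.0 (log2 difference 3.93 ± 0.51, adjusted p = 4.5e-08). Every E5.0 library was above every E4.75 library for both, a condition of the rule that named them. The serine protease genes Prss44 and Prss50, known from the testis, rose by 3.25 ± 0.39 and 3.11 ± 0.48 on the log2 scale (adjusted p = 8.9e-09 and 3.3e-06). Mgarp, a mitochondrial protein, rose by 3.24 ± 0.58, and Cpm, a membrane carboxypeptidase, by 3.11 ± 0.61. The troponin gene Tnnt3 and the pseudogenes Tmem181b-ps and Tmem181c-ps completed the genes outside the Rhox cluster. Pseudogene levels are uncertain, since reads of the parent gene can be assigned to them.

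The Rhox genes, a cluster of reproductive homeobox genes on the X chromosome, included many that rose. Rhox5 (chromosome X, 37804842 to 37808876), the founding member and long known as an extra-embryonic gene, stood at 569, 544 and 552 TPM at E4.75 and 2481, 2701 and 2512 TPM at E5.0 (log2 difference 2.21 ± 0.20, adjusted p = 1.4e-12). Rhox4b (chromosome X, 37432494 to 37437279) stood at 1.68, 1.46 and 2.33 TPM at E4.75 and 22.2, 20.8 and 19.3 TPM at E5.0 (log2 difference 2.96 ± 0.24, adjusted p = 3.4e-14), and Rhox4g at 5.45, 5.08 and 4.76 TPM at E4.75 and 53.6, 59.5 and 44.5 TPM at E5.0 (log2 difference 3.13 ± 0.33, adjusted p = 1.6e-10). Of 31 cluster genes listed after these rises were seen, 20 were tested and 11 were called higher, against 1.4% of all genes, with a median of 1.64. Since the list followed the rises, this count is a description and no support. Leaving out 1 library at a time left 9 to 12 higher and 0 or 1 lower. All 7 Rhox4 copies were among the 11, while Rhox6 (36.3, 38.7 and 30.4 TPM at E5.0, adjusted p = 0.45) was not. Rhox1 was the lowest of the cluster, with a log2 difference of -0.86 (adjusted p = 0.18). The cluster summed to 590 to 618 TPM at E4.75 and 2708 to 2973 TPM at E5.0 in Epi. It was also higher at E5.0 in primitive endoderm, at 1067 to 1116 TPM and then 2358 to 2462 TPM. Epi of E5.0 in vivo held 1312 to 1388 TPM. The change was more positive in Epi than in primitive endoderm for 7 of the 20, against 1.11% of all genes.

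The Rhox4 copies cannot be treated as 7 independent measurements. Between 78.4% and 94.3% of the 31-base words of each copy's transcript also occur in another copy (GENCODE vM21), so reads may be split among them. Their promoters share sequence as well, which is shown to make that similarity visible. The run below is the longest common to the upstream windows of 6 copies, 53 bases, and occurs in 0 other RefSeq promoter windows.
Rhox4b and Rhox4g: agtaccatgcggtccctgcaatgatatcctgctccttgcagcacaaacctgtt
It lies at chrX:37432294-37432346 on the plus strand for Rhox4b and at chrX:37651444-37651496 on the minus strand for Rhox4g, on GRCm38.p6. Trophoblast also expresses these genes, and ExE of E4.75 held Rhox5 at 1017 ± 9.77 TPM and Rhox4b at 2.26 ± 0.344 TPM. The part of trophoblast RNA in the Rhox rise was not tested.

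The largest falls came from genes that were well expressed at E4.75, since a weakly expressed gene cannot fall far in log2(TPM + 1). Tspan8 (chromosome 10, 115816832 to 115849893), a tetraspanin of the cell surface, stood at 189.8, 173 and 195 TPM at E4.75 and 1.62, 0.540 and 0 TPM at E5.0 (log2 difference -6.87 ± 0.51, adjusted p = 1.9e-15). Crxos, a homeobox gene of the preimplantation embryo, stood at 277, 249 and 259.6 TPM at E4.75 and 1.45, 0.770 and 3.22 TPM at E5.0 (log2 difference -6.64 ± 0.55, adjusted p = 1.1e-13). Tcf15 (chromosome 2, 152143561 to 152149097), a helix-loop-helix factor associated with cells leaving naive pluripotency, stood at 178, 179 and 188 TPM at E4.75 and 4.17, 3.21 and 10.7 TPM at E5.0 (log2 difference -4.85 ± 0.63, adjusted p = 5.0e-08). These 3 genes each exceeded 170 TPM in every E4.75 library and stayed under 11 TPM in every E5.0 library. Dppa1, a developmental pluripotency-associated gene, stood at 26.4, 26.0 and 28.8 TPM at E4.75 and was listed at 0 in all 3 libraries of E5.0 (adjusted p = 1.4e-20).

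Transporter genes were among the falls. Slc6a14, which carries neutral and basic amino acids, stood at 57.2, 50.4 and 52.0 TPM at E4.75 and 0.457, 0.295 and 0.683 TPM at E5.0 (log2 difference -5.20 ± 0.31, adjusted p = 5.9e-19). Slc1a1, a glutamate transporter, stood at 32.6, 33.8 and 31.8 TPM at E4.75 and 0, 0.639 and 0.0371 TPM at E5.0 (log2 difference -4.82 ± 0.23, adjusted p = 8.9e-23). The autophagy receptor Calcoco2, the protease inhibitor Serpinb6c, the ectonucleotidase Entpd1, the galectin Lgals2 and Khdc3, a factor of the early embryo's subcortical complex, fell too, with log2 differences of -5.08, -5.02, -4.53, -4.43 and -4.07. Tspan8 and Adh1 were also trophoblast transcripts. Tspan8 was 2568 ± 117 TPM in TE of E4.5 and 565 ± 39.3 TPM in ExE of E4.75, and Adh1 was 557 ± 27.8 TPM and 34.7 ± 0.578 TPM. In Epi of E4.75 Tspan8 stood at 32.9% of its ExE level and Dppa1 at 34.1%, against 41.2% for Elf5 and 35.95% for Hand1. At E5.0 the 4 values were 0.127%, 0%, 47.9% and 36.4%. All these shares use the ExE level of E4.75, so those of E5.0 set Epi against ExE of an earlier age. The other genes set against ExE spread widely, and not all of these differences passed the test. Krt7 went from 39.1% to 6.50% of its ExE level, Lgals1 from 30.5% to 4.83%, Gata3 from 44.9% to 12.9%, Ascl2 from 24.7% to 8.44%, Krt8 from 34.6% to 16.5% and Eomes from 59.6% to 23.1%. Krt18 went from 38.8% to 29.3%, Wnt7b from 61.8% to 48.5% and Tfap2c from 40.1% to 36.2%, while Plet1 went from 26.8% to 164% and Bmp4 from 56.9% to 172%.

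Pluripotency genes showed falls in the naive group and few calls elsewhere. Of 18 naive genes tested 7 were called lower, against 6.21% of all genes, with a median of -0.82 against -0.06 over all genes. Of these 7, 5 were also called lower in primitive endoderm over the same ages, against 26.5% of all genes that fell in Epi. The naive genes summed to 10331 to 10711 TPM in Epi of E4.75 and 3236 to 4209 TPM in Epi of E5.0. They are not confined to Epi, with sums of 7731 to 7908 TPM in ExE of E4.75 and 24741 to 26824 TPM in TE of E4.5. The part of trophoblast RNA in the naive falls was not tested. Zfp42, a naive zinc finger factor, stood at 105, 98.4 and 109.7 TPM at E4.75 and 165, 162 and 164 TPM at E5.0, higher in all 3 libraries without passing the test (log2 difference 0.64 ± 0.24, adjusted p = 0.076). Dppa5a, Klf2 and Klf5 were among the 7. Spp1 (chromosome 5, 104435118 to 104441050), the secreted phosphoprotein osteopontin, stood at 211, 208 and 197 TPM at E4.75 and 19.2, 35.5 and 25.7 TPM at E5.0 (log2 difference -2.93 ± 0.30, adjusted p = 1.1e-10). Fgf4, the growth factor that pluripotent cells send to primitive endoderm and trophoblast, stood at 45.0, 47.1 and 41.9 TPM at E4.75 and 9.60, 13.7 and 12.4 TPM at E5.0 (log2 difference -1.84 ± 0.31, adjusted p = 1.6e-05). Tcl1, an AKT cofactor, stood at 12.1, 12.4 and 19.7 TPM at E4.75 and 2.61, 3.21 and 2.29 TPM at E5.0 (log2 difference -2.06 ± 0.31, adjusted p = 1.9e-06). Dppa3, a maternal factor that guards DNA methylation, fell by 1.69 ± 0.46 and was the 1 called of 11 DNA methylation genes. Its call was lost without E5.0 replicate 3 (-1.52, adjusted p = 0.058).

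Core pluripotency genes were mostly not called. Of 12 tested 2 were called lower, against 6.21% of all genes, and 7 of 12 were lower in all 3 libraries (58.3%, against 21.2% of all genes). Sox2 (chromosome 3, 34650405 to 34652461), the partner of Pou5f1, was already low and stood at 7.04, 6.88 and 5.70 TPM at E4.75 and 3.37, 0.742 and 1.13 TPM at E5.0 (log2 difference -1.57 ± 0.39, adjusted p = 0.0037). Sall4, a zinc finger factor of the same network, stood at 127, 99.0 and 102 TPM at E4.75 and 90.7, 29.7 and 37.0 TPM at E5.0 (log2 difference -1.21 ± 0.29, adjusted p = 0.0024). The Sox2 call was lost without E5.0 replicate 2 (-1.30, adjusted p = 0.054), and the Sall4 call was lost without E5.0 replicate 2 (-0.89, adjusted p = 0.07). Nanog stood at 6.07, 5.41 and 10.2 TPM at E4.75 and 4.55, 4.92 and 9.59 TPM at E5.0, with overlapping groups (adjusted p = 0.9). Tdgf1, the Nodal co-receptor, stood at 555, 525 and 545 TPM at E4.75 and 311, 268 and 257 TPM at E5.0, just under the size a call required (log2 difference -0.96 ± 0.21, adjusted p = 7.8e-04). Utf1, a chromatin factor of pluripotent cells, was among the most abundant at 1527, 1334 and 1560.0 TPM at E5.0 and overlapped with E4.75 (adjusted p = 0.69).

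Of 19 formative and primed genes tested 2 were called, both lower, against 6.21% of all genes, with a median of -0.14. The count was 1 without E4.75 replicate 1 or 2 and 5 without E5.0 replicate 1, where the median was -0.33. Fgf5, a growth factor of the formative epiblast, stood at 78.1, 66.6 and 71.6 TPM at E4.75 and 62.4, 48.7 and 83.6 TPM at E5.0 (log2 difference -0.18 ± 0.49, adjusted p = 0.92). Pou3f1, a POU factor of the same state, stood at 23.2, 20.9 and 22.4 TPM at E4.75 and 35.1, 16.5 and 15.6 TPM at E5.0, replicate 1 of E5.0 being the highest (adjusted p = 0.96). Dnmt3b, the de novo DNA methyltransferase, stood at 370.0, 344 and 367 TPM at E4.75 and 538, 481 and 574 TPM at E5.0. All its E5.0 values were above those of E4.75, and the difference missed the test (log2 difference 0.56 ± 0.22, adjusted p = 0.096). Lef1, a transcriptional partner of beta-catenin, fell by 1.30 ± 0.30 (adjusted p = 0.0018).

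Primitive endoderm genes were lower at E5.0. Of 20 tested 13 were called lower, against 6.21% of all genes, with a median of -1.33. Leaving out 1 library at a time left between 9 and 13 called. Gata4, an endoderm transcription factor, stood at 3.20, 4.91 and 2.52 TPM at E4.75 and 0.233, 0.781 and 0 TPM at E5.0 (log2 difference -1.77 ± 0.32, adjusted p = 5.1e-05). Dab2, an endocytic adaptor, stood at 164, 159.9 and 150.0 TPM at E4.75 and 28.3, 16.0 and 22.4 TPM at E5.0 (log2 difference -2.81 ± 0.29, adjusted p = 1.4e-10). Cubn and Lrp2, partners in nutrient uptake, had log2 differences of -2.23 (adjusted p = 6.6e-07) and -1.92 (adjusted p = 4.4e-08). Sox17 stood at 7.93, 7.37 and 6.79 TPM at E4.75 and 2.77, 3.01 and 4.15 TPM at E5.0, lower in all 3 libraries without a call (adjusted p = 0.052). Summed over the list, Epi libraries held 662 to 688 TPM at E4.75 and 287 to 316 TPM at E5.0. Primitive endoderm of E4.75 held 9482 to 9948 TPM. Dab2 is not restricted to endoderm, and ExE of E4.75 held it at 472 ± 26.7 TPM.

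Basement membrane genes overlap with that list and some fell with it. Of 16 tested 6 were called lower, against 6.21% of all genes. All 6 were also in the endoderm list, and all were laminin, collagen IV and nidogen genes that primitive endoderm also secretes. Nid1, which links laminin to collagen IV, stood at 10.6, 11.4 and 10.7 TPM at E4.75 and 1.39, 1.39 and 0.995 TPM at E5.0 (log2 difference -2.40 ± 0.50, adjusted p = 3.7e-04). Lama1, the laminin alpha chain of embryonic basement membranes, stood at 5.33, 6.19 and 5.39 TPM at E4.75 and 1.25, 0.656 and 1.13 TPM at E5.0 (log2 difference -1.73 ± 0.32, adjusted p = 6.3e-05). Lamc1, the shared gamma chain, fell by 1.56 ± 0.36 (adjusted p = 0.0014). Sparc, a matrix glycoprotein, stood at 219, 234 and 227 TPM at E4.75 and 131, 106 and 113 TPM at E5.0, with a difference of -0.96 (adjusted p = 1.6e-05) that stopped short of 1. Without E5.0 replicate 2 the list had 4 calls, the fewest of the fits that each left out 1 library.

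Epithelial polarity genes of the rosette were largely not called. Of 16 tested 2 were called lower. Prkci, the atypical protein kinase C of the apical complex, stood at 20.0, 19.4 and 16.9 TPM at E4.75 and 5.59, 0.650 and 6.51 TPM at E5.0 (log2 difference -2.19 ± 0.38, adjusted p = 2.9e-05). Itgb1, the common beta chain of matrix integrins, stood at 40.8, 40.01 and 42.1 TPM at E4.75 and 25.5, 6.94 and 26.6 TPM at E5.0, and its call (log2 difference -1.22 ± 0.38, adjusted p = 0.026) was lost without E4.75 replicate 1 (-1.23, adjusted p = 0.074), without E4.75 replicate 2 (-1.24, adjusted p = 0.064), without E4.75 replicate 3 (-1.20, adjusted p = 0.076) or without E5.0 replicate 2 (-0.63, adjusted p = 0.44). Epcam, an epithelial adhesion molecule, was nearly level at 546, 558 and 599 TPM at E4.75 and 519, 585 and 589.8 TPM at E5.0 (log2 difference -0.01 ± 0.13, adjusted p = 1). Cldn6, a tight junction protein, stood at 283, 270.0 and 320.0 TPM at E4.75 and 399, 469 and 440.2 TPM at E5.0, with a small difference past the p threshold (log2 difference 0.58 ± 0.14, adjusted p = 0.0026) and below the size required.

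Trophectoderm genes were mostly lower at E5.0, and ExE genes went both ways. Of 15 trophectoderm genes tested 7 were called lower, against 6.21% of all genes, and 1 higher, against 1.4%, with a median of -1.16. The 1 called higher, the homeobox factor Cdx2, stood at 0.948, 0.0476 and 0.168 TPM at E4.75 and 3.35, 0.225 and 8.48 TPM at E5.0. Its groups overlapped (log2 difference 1.47 ± 0.48, adjusted p = 0.034), and its call was lost without E4.75 replicate 2 (1.29, adjusted p = 0.15), without E4.75 replicate 3 (1.37, adjusted p = 0.12), without E5.0 replicate 1 (1.35, adjusted p = 0.099) or without E5.0 replicate 3 (0.79, adjusted p = 0.43). Lgals1, a galectin, stood at 1630.4, 1618 and 1687 TPM at E4.75 and 250.2, 288 and 243 TPM at E5.0 (log2 difference -2.66 ± 0.26, adjusted p = 3.1e-11), and the keratin partner Krt18 at 766, 829 and 839 TPM at E4.75 and 532, 641 and 666 TPM at E5.0 (log2 difference -0.41 ± 0.15, adjusted p = 0.076). Of 13 ExE genes 3 were called higher (Rhox5, Ets2 and Cdx2) and 2 lower (Eomes and Sox2), and leaving out 1 library at a time left 1 to 4 higher and 1 or 2 lower. Eomes, a T-box factor of trophoblast stem cells, stood at 62.0, 58.3 and 59.0 TPM at E4.75 and 22.6, 19.04 and 27.8 TPM at E5.0 (log2 difference -1.35 ± 0.24, adjusted p = 5.2e-05). Summed trophectoderm genes were 3970 to 4093 TPM at E4.75 and 1677 to 1783 TPM at E5.0, and summed ExE genes, mostly Rhox5, 941 to 995 and 2971 to 3087 TPM. Ets2, an ETS factor of trophoblast stem cells, rose by 1.44 ± 0.43, and its call was lost without E4.75 replicate 1 (1.42, adjusted p = 0.059), without E4.75 replicate 2 (1.42, adjusted p = 0.054) or without E5.0 replicate 1 (1.33, adjusted p = 0.062).

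Uterine and blood genes were scarce, and giant cell genes were mostly not called. Of 7 giant cell genes tested 1 was called, Mmp9, a matrix protease listed at 0 in all E4.75 libraries and at 3.60, 1.39 and 1.02 TPM at E5.0, whose call was lost without E5.0 replicate 1 (adjusted p = 0.053). Of 5 uterine stroma genes tested limma called 0, with 2 at an unadjusted p under 0.05, and of 5 blood genes 0, with 0 at that p. Dcn, a proteoglycan of stroma, stood at 14.3, 11.57 and 11.52 TPM at E4.75 and 6.02, 4.06 and 5.09 TPM at E5.0 (log2 difference -1.16 ± 0.41, adjusted p = 0.059) and was called in the fit of the 6 libraries alone, at -1.16 (adjusted p = 0.016). Summed stroma genes reached 32.4 TPM at most and summed blood genes 14.7 TPM. Summed giant cell genes were 132 to 139 TPM at E4.75 and 134 to 146 TPM at E5.0. The same sum was 1789 to 1975 TPM in ExE of E4.75 and 57.3 to 60.6 TPM in TE of E4.5.

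Among signalling genes, a BMP ligand and a WNT ligand rose. Bmp8b (chromosome 4, 123105165 to 123132099), a BMP ligand made by the ExE, stood at 3.80, 5.29 and 4.64 TPM at E4.75 and 29.1, 21.6 and 29.0 TPM at E5.0 (log2 difference 2.30 ± 0.39, adjusted p = 2.0e-05). Wnt6 (chromosome 1, 74771892 to 74785322), a WNT ligand, stood at 3.09, 2.82 and 3.80 TPM at E4.75 and 25.9, 19.5 and 26.1 TPM at E5.0 (log2 difference 2.55 ± 0.40, adjusted p = 3.9e-06). Bmp4 (chromosome 14, 46383520 to 46390669), the main BMP ligand of the ExE, stood at 38.6, 36.9 and 40.4 TPM at E4.75 and 127, 109 and 115 TPM at E5.0, every E5.0 value being more than 100 TPM and every E4.75 value below 41 TPM. It was not called (log2 difference 1.57 ± 0.61, adjusted p = 0.091), although it was in the fit of the 6 libraries alone, at 1.57 (adjusted p = 1.0e-04). Bmp4 stood at 67.9 ± 3.96 TPM and Bmp8b at 13.2 ± 1.67 TPM in ExE of E4.75. The part of trophoblast RNA in these ligand levels was not tested.

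A target of BMP signalling rose as well. Id3, a helix-loop-helix inhibitor induced by BMP, stood at 80.7, 72.6 and 70.9 TPM at E4.75 and 186, 204 and 158 TPM at E5.0 (log2 difference 1.27 ± 0.27, adjusted p = 6.6e-04). Id1 stood at 25.2, 21.1 and 27.3 TPM at E4.75 and 47.5, 69.3 and 43.5 TPM at E5.0 (log2 difference 1.07 ± 0.31, adjusted p = 0.017), and its call was lost without E4.75 replicate 2 (0.97, adjusted p = 0.081) or without E5.0 replicate 2 (0.87, adjusted p = 0.14). Id2 stood at 475, 408 and 411 TPM at E4.75 and 465, 395 and 414 TPM at E5.0 and overlapped (adjusted p = 1). Of 13 BMP genes tested 3 were called higher, against 1.4% of all genes. The list summed to 561 to 644 TPM at E4.75 and 788 to 871 TPM at E5.0 in Epi. In primitive endoderm the sums were 255 to 303 TPM and 1126 to 1205 TPM, so the rise was not particular to Epi. The change was more positive in Epi for 1 member, against 1.11% of all genes, and more negative for 2, against 1.88%. The WNT antagonist Dkk1 (chromosome 19, 30545863 to 30549665) stood at 9.59, 16.0 and 12.5 TPM at E4.75 and 1.10, 1.43 and 1.74 TPM at E5.0 (log2 difference -2.48 ± 0.26, adjusted p = 1.9e-10), and of 20 WNT genes 1 was called higher and 2 lower.

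Nodal genes leaned lower without a call, and FGF genes were called in both directions. Of 15 Nodal and activin genes limma called 0, with 4 at an unadjusted p under 0.05 and 1 called in the fit of the 6 libraries alone. Their median was -0.43, against -0.06 over all genes. Of the 15, 6 (40%) were lower in all 3 E5.0 libraries, against 21.2% of all genes, and 2 (13.3%) higher, against 15.1%. Foxh1, the Nodal effector, stood at 62.5, 63.5 and 57.7 TPM at E4.75 and 76.1, 106 and 97.9 TPM at E5.0 (log2 difference 0.59 ± 0.29, adjusted p = 0.21). Of 17 FGF and ERK genes Fgfr4 and Egr1 were called higher and Fgf4, Fgfr2 and Fgfr3 lower, and leaving out 1 library at a time left 1 or 2 higher and 1 to 3 lower. Fgfr4 stood at 0.854, 2.91 and 0.981 TPM at E4.75 and 9.58, 4.47 and 6.75 TPM at E5.0 (log2 difference 1.66 ± 0.41, adjusted p = 0.0033) and Fgfr2, the receptor through which FGF4 also acts in trophoblast, at 18.6, 16.5 and 15.4 TPM at E4.75 and 7.99, 2.52 and 4.44 TPM at E5.0 (log2 difference -1.68 ± 0.44, adjusted p = 0.006). The Fgfr2 call was lost without E5.0 replicate 2 (-1.35, adjusted p = 0.082). Dusp6, a phosphatase induced by ERK, stood at 166, 152 and 157 TPM at E4.75 and 127, 146 and 141 TPM at E5.0 (log2 difference -0.20 ± 0.21, adjusted p = 0.69).

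Several glycolytic genes rose. Of 20 tested 5 were called higher, against 1.4% of all genes, and 1 lower, against 6.21%, with a median of 0.70. In all, 15 of 20 (75%) were higher in all 3 E5.0 libraries against 15.1% of all genes tested. Slc2a1 (chromosome 4, 119108711 to 119137983), the glucose transporter GLUT1, stood at 107, 118 and 117 TPM at E4.75 and 290.4, 374 and 387 TPM at E5.0 (log2 difference 1.60 ± 0.21, adjusted p = 4.9e-08). Slc2a3 (chromosome 6, 122727809 to 122801640), the glucose transporter GLUT3, went the other way at 37.2, 31.4 and 34.6 TPM at E4.75 and 15.6, 3.09 and 4.29 TPM at E5.0 (log2 difference -2.31 ± 0.29, adjusted p = 3.4e-08). Tpi1, which interconverts triose phosphates, stood at 583, 658 and 645 TPM at E4.75 and 1127, 1630.4 and 1439.9 TPM at E5.0 (log2 difference 1.14 ± 0.09, adjusted p = 6.8e-14). The abundant enzymes Eno1 and Pkm were higher by 0.75 (adjusted p = 2.9e-08) and 0.66 (adjusted p = 1.4e-04), below the size required. Hk1, which phosphorylates glucose, stood at 5.22, 4.43 and 3.48 TPM at E4.75 and 26.4, 8.26 and 15.2 TPM at E5.0 (log2 difference 1.59 ± 0.41, adjusted p = 0.005) and lost its call without E5.0 replicate 1 (1.20, adjusted p = 0.068). The list's median stayed between 0.65 and 0.75 in every alternative, each library left out included.

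Other metabolic groups had few calls. Of 28 nuclear-encoded oxidative phosphorylation genes 1 was called lower, Ndufa1, a complex I subunit, at 357, 322 and 371 TPM at E4.75 and 206, 156 and 134 TPM at E5.0 (log2 difference -1.10 ± 0.19, adjusted p = 1.9e-05), and without E5.0 replicate 3 its difference was -0.96 (adjusted p = 9.9e-04), below the size required. Of 20 amino acid and serine genes Mthfd2, Atf4, Chac1 and Trib3 were called higher and Tdh lower, and leaving out 1 library at a time left 2 or 3 higher and 0 lower. Chac1, a glutathione-degrading enzyme induced by ATF4, stood at 1.83, 0.904 and 1.70 TPM at E4.75 and 9.73, 11.1 and 5.73 TPM at E5.0 (log2 difference 1.97 ± 0.46, adjusted p = 0.0017). Mthfd2, a mitochondrial folate enzyme, stood at 69.8, 62.2 and 71.7 TPM at E4.75 and 159, 155 and 168 TPM at E5.0 (log2 difference 1.23 ± 0.36, adjusted p = 0.015), and its call was lost without E4.75 replicate 2 (1.17, adjusted p = 0.059) or without E5.0 replicate 3 (1.20, adjusted p = 0.053). Odc1, which starts polyamine synthesis, was the 1 called of 16 MYC and ribosome genes, at 340.0, 350.1 and 339.7 TPM at E4.75 and 52.8, 65.9 and 80.6 TPM at E5.0 (log2 difference -2.37 ± 0.18, adjusted p = 4.1e-15). Of 12 hypoxia genes limma called 0, with 2 at an unadjusted p under 0.05. Of 21 cholesterol genes Insig1, which holds back sterol synthesis, was called lower, and its call was lost without E4.75 replicate 1 (-1.05, adjusted p = 0.12), without E5.0 replicate 2 (-0.83, adjusted p = 0.26) or without E5.0 replicate 3 (-1.06, adjusted p = 0.11).

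Many antioxidant enzyme genes were called lower. A list of 34 was drawn up after several of its members were seen to fall, so its count is a description and no support. Of these 14 were called lower, against 6.21% of all genes, with a median of -0.86, and 27 of 34 (79.4%) were lower in all 3 libraries, against 21.2% of all genes. Gclm (chromosome 3, 122245557 to 122270732), the regulatory subunit of glutathione synthesis, stood at 242, 259 and 274 TPM at E4.75 and 31.8, 37.2 and 34.6 TPM at E5.0 (log2 difference -2.87 ± 0.29, adjusted p = 3.8e-11). Gsta1, a glutathione transferase, stood at 327, 297 and 283 TPM at E4.75 and 26.3, 23.3 and 16.8 TPM at E5.0 (log2 difference -3.73 ± 0.27, adjusted p = 1.5e-15). Srxn1, which restores peroxiredoxins, stood at 33.1, 29.7 and 34.0 TPM at E4.75 and 3.34, 6.09 and 4.95 TPM at E5.0 (log2 difference -2.55 ± 0.41, adjusted p = 7.8e-06). The regulators Nfe2l2 and Keap1 were not called, at 78.9, 87.7 and 87.2 TPM and 9.44, 9.66 and 12.01 TPM at E5.0 (adjusted p = 0.47 and adjusted p = 0.97). Gpx1, a glutathione peroxidase, was higher by 0.62 (adjusted p = 4.7e-07). The antioxidant response element core, TGACNNNGC, was searched on both strands. It was found in a promoter window of 8 of the 29 genes matched (27.6%) and in 12.4% of all windows. The first share counts genes and the second windows, and the 8 genes include Nfe2l2, which was not called.

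Chromatin regulators included some Polycomb genes that fell. Of 31 tested 6 were called lower, against 6.21% of all genes, with a median of -0.34, and leaving out 1 library at a time left 4 to 7. Ezh2 (chromosome 6, 47530139 to 47595341), the H3K27 methyltransferase of PRC2, stood at 79.0, 73.0 and 68.9 TPM at E4.75 and 20.8, 19.7 and 19.7 TPM at E5.0 (log2 difference -1.82 ± 0.27, adjusted p = 1.3e-06). Pcgf5, a subunit of a variant PRC1, stood at 11.4, 8.70 and 9.65 TPM at E4.75 and 1.95, 2.89 and 1.496 TPM at E5.0 (log2 difference -1.83 ± 0.32, adjusted p = 2.4e-05). Rbbp4 and Rbbp7, histone chaperones of PRC2 and other complexes, stood at 183, 129 and 171 TPM and 578, 682 and 624 TPM at E5.0 without a call. Of 15 H3K4 methyltransferase genes limma called 0, with 5 at an unadjusted p under 0.05, and Dpy30, a core subunit, was at -0.35 (adjusted p = 0.0013). Of 9 H3K4 and H3K27 demethylase genes 3 were called lower, against 6.21% of all genes. The count was 0 without E5.0 replicate 2, 1 without E4.75 replicate 1 and 6 without E5.0 replicate 1. Kdm5b, an H3K4 demethylase, stood at 65.7, 64.2 and 55.9 TPM at E4.75 and 36.1, 16.4 and 27.04 TPM at E5.0 (log2 difference -1.26 ± 0.24, adjusted p = 1.6e-04) and its call was lost without E5.0 replicate 2 (-0.96, adjusted p = 0.011).

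The choice of scale and of libraries in the fit decided some of these calls. With a pseudocount of 0.1 TPM in place of 1, Bmp8b (adjusted p = 0.062), Lef1 (adjusted p = 0.07), Chac1 (adjusted p = 0.094), Pga5 (adjusted p = 0.052) and Fgfr4 (adjusted p = 0.096) were no longer called, as were Dppa3, Fgfr2, Hk1, Ets2, Id1, Mthfd2, Itgb1, Cdx2 and Egr1 among genes that also depended on 1 library. In the fit of Epi groups only, Lamc1 (adjusted p = 0.055), Jund (adjusted p = 0.12) and Sox2 (adjusted p = 0.15) were not called, and in the fit of the 6 libraries alone Sall4 was not (adjusted p = 0.054). Cyp26a1, Duoxa2, Apoa1, Rhox5, Tspan8, Crxos, Tcf15, Spp1, Fgf4, Tcl1, Gata4, Dab2, Nid1, Lgals1, Eomes, Wnt6, Id3, Dkk1, Slc2a1, Slc2a3, Tpi1, Odc1, Ezh2, Hspb1, Perp and Irx3 kept their calls in all 16 alternatives, each library left out included.

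**Figure D4:**
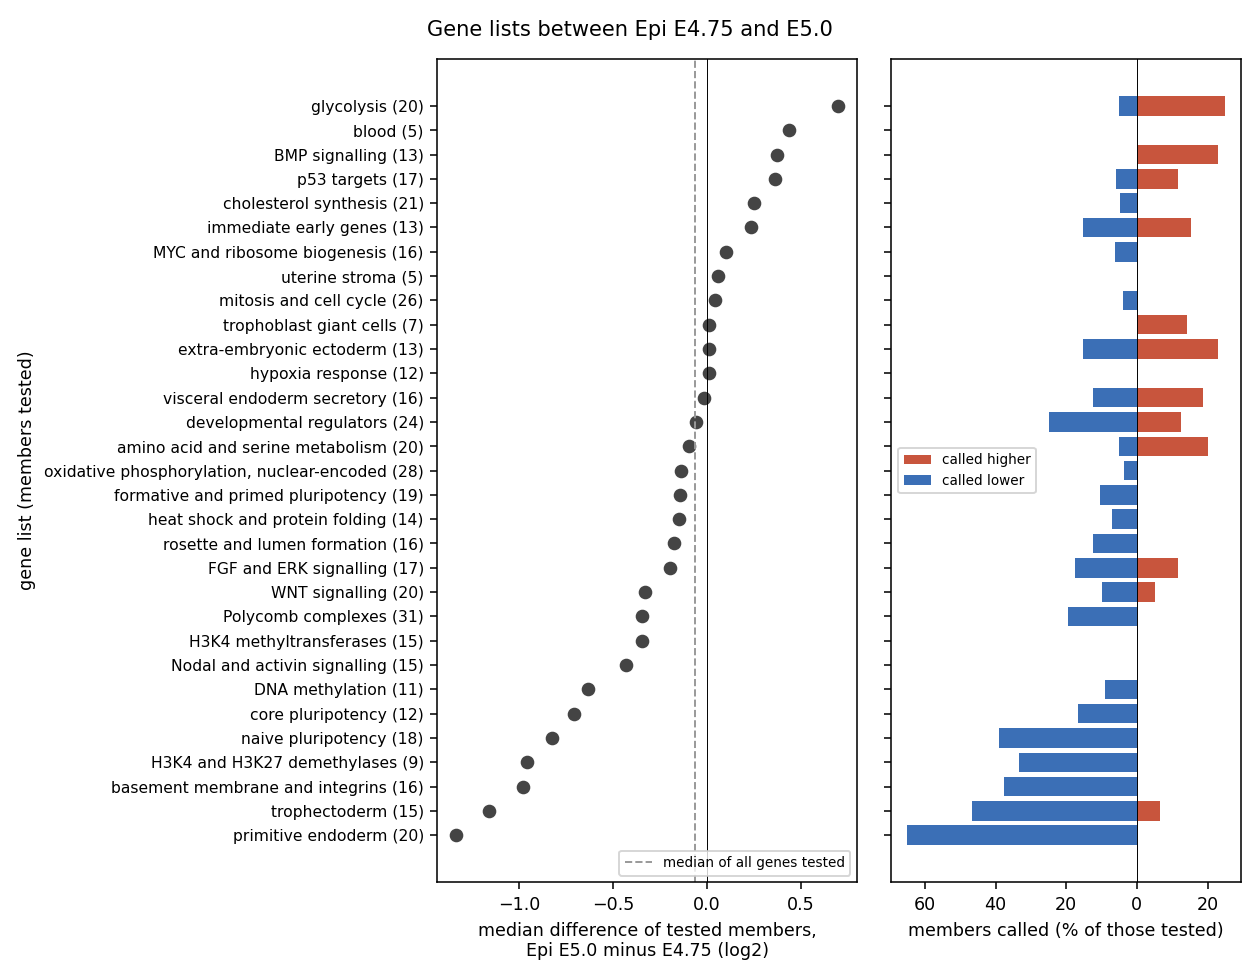
Left, median log2 difference (E5.0 minus E4.75) of the tested members of each gene list, leaving out lists drawn up after values were seen, with the median of all genes tested as a dashed line. Right, members called higher (red) and lower (blue) as a percentage of those tested. Among the lists plotted, primitive endoderm genes have the lowest median (-1.33) and glycolysis genes the highest (0.70).

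Stress, growth and cell cycle genes were mixed. Of 13 immediate early genes Egr1 and Btg2 were called higher and Fos and Jund lower, and leaving out 1 library at a time left 0 or 1 higher and 1 or 2 lower. Jund fell by 1.33 ± 0.36 (adjusted p = 0.0085), while Egr1 stood at 13.3, 11.1 and 12.5 TPM at E4.75 and 27.4, 19.5 and 31.5 TPM at E5.0 (log2 difference 1.00 ± 0.34, adjusted p = 0.046) and Fos at 58.2, 64.0 and 50.7 TPM at E4.75 and 22.9, 27.4 and 25.2 TPM at E5.0 (log2 difference -1.16 ± 0.35, adjusted p = 0.019). The Egr1 call was lost without E4.75 replicate 1 (1.06, adjusted p = 0.088), without E4.75 replicate 2 (0.94, adjusted p = 0.14), without E4.75 replicate 3 (1.01, adjusted p = 0.1), without E5.0 replicate 1 (0.96, adjusted p = 0.1) or without E5.0 replicate 3 (0.86, adjusted p = 0.19). The Fos call was lost without E4.75 replicate 1 (-1.15, adjusted p = 0.062), without E4.75 replicate 2 (-1.08, adjusted p = 0.079), without E5.0 replicate 1 (-1.10, adjusted p = 0.058) or without E5.0 replicate 3 (-1.16, adjusted p = 0.054). Of 14 heat shock and folding genes 1 was called lower, the small heat shock protein Hspb1, at 1051, 1159 and 1145 TPM at E4.75 and 388, 409.8 and 425 TPM at E5.0 (log2 difference -1.45 ± 0.15, adjusted p = 2.2e-10). Of 17 p53 targets 2 were called higher and 1 lower, with Perp, an apoptosis and desmosome protein, at 36.4, 34.2 and 34.4 TPM at E4.75 and 156, 167 and 161 TPM at E5.0 (log2 difference 2.17 ± 0.44, adjusted p = 3.3e-04). Of 26 mitosis and cell cycle genes Top2a was called lower, a call lost without E4.75 replicate 1 (-0.98, adjusted p = 0.0071) or without E5.0 replicate 2 (-0.58, adjusted p = 0.072), and Ccnb1, cyclin B1, was at 0.22 (adjusted p = 0.23). Of 24 developmental regulators 3 were called higher and 6 lower, and leaving out 1 library at a time left 1 or 2 higher and 4 to 6 lower. Of those called higher, Gsc, a homeobox factor of the organiser, was listed at 0 in replicate 3 of E5.0, and Cdx2 is described above. Irx3, another homeobox gene, stood at 24.3, 21.5 and 20.2 TPM at E4.75 and 5.17, 10.4 and 4.49 TPM at E5.0 (log2 difference -1.66 ± 0.32, adjusted p = 1.4e-04). Visceral endoderm secretory genes gave 3 higher and 2 lower of 16, among them the pepsinogen Pga5 at 15.8, 21.4 and 18.7 TPM at E4.75 and 122, 136 and 108 TPM at E5.0 (log2 difference 2.65 ± 0.42, adjusted p = 5.7e-06).

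The change was next set against that of the primitive endoderm over the same ages, which shares no library with it. Primitive endoderm had 627 genes called (4.03%), 157 higher (1.01%) and 470 lower (3.02%). Of the 966 genes that fell in Epi, 256 (26.5%) also fell in primitive endoderm, or 54.5% of the falls there. For rises, 13 of 218 Epi rises (5.96%) were also called higher in primitive endoderm, or 8.28% of the rises there. The difference between the 2 changes itself was called for 465 genes (2.99%), with 173 changes more positive in Epi (1.11%) and 292 more negative (1.88%). In a fit of the 12 libraries alone these numbers were 578 and 636.

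Falls common to both lineages included RNA-binding proteins. Ybx1 (chromosome 4, 119277981 to 119294604), a cold shock protein that binds mRNA, stood at 1834, 1679 and 1754 TPM at E4.75 and 248, 183 and 201 TPM at E5.0 (log2 difference -3.06 ± 0.14, adjusted p = 1.0e-23), and its change in primitive endoderm was -3.05 (adjusted p = 2.0e-23). A list of 33 splicing factor genes was drawn up after such falls were seen, and 10 were called lower in Epi, against 6.21% of all genes, of which 8 were also lower in primitive endoderm. Srsf2, a serine and arginine-rich splicing factor, stood at 549, 582 and 547 TPM at E4.75 and 135, 106 and 99.6 TPM at E5.0 (log2 difference -2.30 ± 0.22, adjusted p = 1.1e-11), with -1.93 (adjusted p = 2.5e-09) in primitive endoderm. Hnrnpu, a nuclear matrix RNA-binding protein, stood at 234, 204 and 193 TPM at E4.75 and 67.7, 41.7 and 48.5 TPM at E5.0 (log2 difference -2.004 ± 0.19, adjusted p = 1.1e-11), with -1.45 (adjusted p = 1.1e-07). Other members of the list, such as Srsf3 and Hnrnpk, were not called (adjusted p = 0.64 and adjusted p = 1), and 10 of 33 (30.3%) were higher in all 3 libraries, against 15.1% of all genes. Ybx1 was low in Epi of E4.5 too, at 124 ± 19.5 TPM, and in Epi of E5.0 in vivo, at 213 ± 16.6 TPM, but stood at 1026 ± 225 TPM in Epi of E5.25 (SD, n = 3 each). Gclm followed the same order of levels, at 14.8 ± 6.31 TPM, 31.7 ± 5.73 TPM and 153 ± 34.6 TPM. Whether the low groups share a preparation is not stated in the labels and was not tested.

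**Figure D5:**
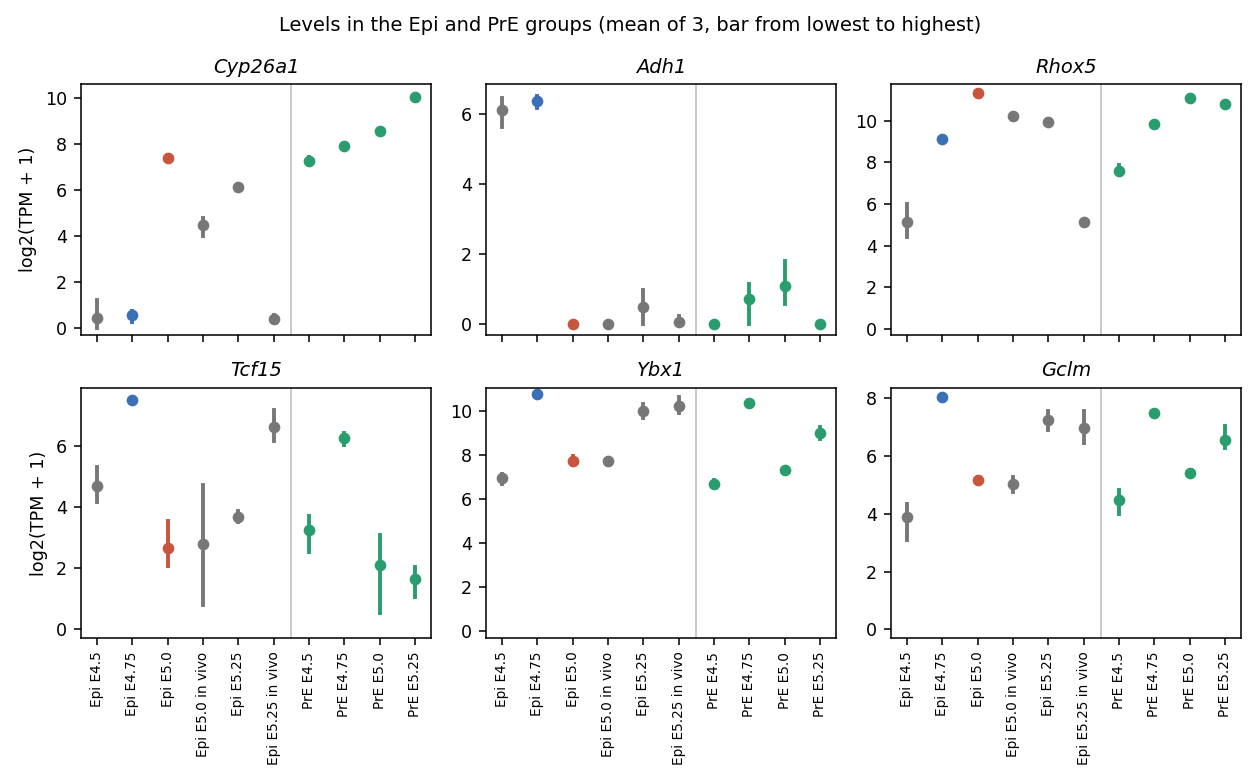
Level of 6 genes, as log2(TPM + 1), in 6 Epi groups and, right of the grey line, 4 PrE groups. Points are means of 3 libraries and bars run from the lowest to the highest library, with Epi of E4.75 in blue and of E5.0 in red. Cyp26a1 and Adh1 change sides between those 2 groups, and Ybx1 and Gclm are low in both lineages at E4.5 and E5.0.

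Changes that differed between the lineages included some core pluripotency genes. Pou5f1 was level in Epi, and in primitive endoderm it was 29.6 ± 1.74 TPM at E4.75 and 2.57 ± 1.18 TPM at E5.0, a difference of the changes of 3.13 ± 0.57 (adjusted p = 1.5e-04). Of 12 core pluripotency genes 5 had a more positive change in Epi, against 1.11% of all genes, and of 18 naive genes 1 had a more negative change, against 1.88%, while for Sox2 and Nanog the difference was not called (adjusted p = 0.82 and adjusted p = 0.92). Dnmt3b and Pou3f1 also differed, by 1.28 ± 0.31 (adjusted p = 0.0066) and 2.03 ± 0.47 (adjusted p = 0.0038). Cyp26a1 differed by 6.16 ± 0.45 (adjusted p = 2.5e-15), and Slc2a1 by 1.00 ± 0.29 (adjusted p = 0.036). Otx2, Fgf5, Zfp42, Sox17, Gata6, Cdx2 and Eomes were not called, with adjusted p from 0.33 to 1.

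Trophoblast transcripts were present in part of that comparison. Primitive endoderm of E5.0 held Hand1 at 66.3 to 77.2 TPM and Prl3d1, a placental lactogen of giant cells, at 132 to 172 TPM, against 0.182 to 0.246 TPM and 0.279 to 0.927 TPM at E4.75. Of 15 trophectoderm genes 11 had a more negative change in Epi, against 1.88% of all genes. Among them were Krt18 at -2.60 ± 0.22 (adjusted p = 2.7e-13) and Lgals1 at -5.66 ± 0.37 (adjusted p = 5.6e-17). The part of these transcripts in the primitive endoderm values was not tested. Tspan8, by contrast, stood at 4.22 to 8.58 TPM and 6.25 to 7.19 TPM in primitive endoderm, so its difference of -7.10 ± 0.72 (adjusted p = 1.4e-10) came from values that were low at both ages there.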

How the data were processed

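RNA of 67 libraries was measured by RNA-seq, and 6 were compared here (Epi of E4.75 and of E5.0, 3 each). The deposited values are TPM per gene, made by the authors with HISAT2 2.2.1, StringTie 2.2.1 and Cufflinks on mm10, per the submitters' processing notes; strand, annotation and read depth are not given in the sources used here, so overlapping and antisense genes cannot be told apart and no counting interval is given. limma 3.58.1 (R 4.3.3) was fitted on log2(TPM + 1) with a mean per group over all 67 libraries and a mean-variance trend, for the 15567 genes with at least 1 TPM in at least 3 libraries. The procedure was tested on simulated data. The rule for named genes took at most 3 called genes of each list in either direction, the 12 largest non-overlapping rises and falls without predicted genes, 12 set markers and up to 2 abundant uncalled members per list; other names were chosen after their values were seen. Members and lists were chosen with earlier results of these data known. No mitochondria-encoded gene of a list of 13 was matched in the table. Some called list members are counted but not reported here. Alternatives changed the pseudocount, filter, scaling, libraries in the fit, weights, replicate block and each library in turn.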

Additional observations from a re-analysis of the deposited data

Results flagged for a closer look

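The change from E4.75 to E5.0 differed between epiblast and primitive endoderm, by the interaction term of the limma fit over all genes, for 25 of the genes singled out above. The values are the Epi change minus the primitive endoderm change in log2(TPM + 1).

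More positive in Epi were Cyp26a1 at 6.16, Mgarp at 4.55, Prss50 at 3.54, Tmem181c-ps at 3.42, Tnnt3 at 3.39, Tmem181b-ps at 3.28, Pou5f1 at 3.13, Rhox4g at 2.86, Apoa1 at 2.81, Pou3f1 at 2.03 and Dnmt3b at 1.28. The values of Pou5f1, Pou3f1 and Dnmt3b come with levels in Epi that were not called changed. More negative in Epi were Tspan8 at -7.10, Entpd1 at -7.09, Crxos at -5.88, Serpinb6c at -5.252, Lgals2 at -4.94, Calcoco2 at -4.22 and Khdc3 at -2.77.

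For genes listed at 0 in a whole group no size is given. These were Duoxa2 (adjusted p = 1.1e-05), Prss44 (adjusted p = 4.7e-05) and Rhox4b (adjusted p = 3.5e-09), which rose in Epi, and Adh1 (adjusted p = 7.3e-17), Slc1a1 (adjusted p = 9.7e-16), Dppa1 (adjusted p = 2.6e-14) and Slc6a14 (adjusted p = 4.8e-13), which fell in Epi. Primitive endoderm of E5.0 held Hand1 at 66.3 to 77.2 TPM, and the part of trophoblast RNA in these differences was not tested.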

How the results depend on the processing

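The 1184 calls (218 higher, 966 lower; 85 list members) depended on several choices. With a pseudocount of 0.1 TPM 136 genes were higher, after quantile normalization 334, and with no minimum difference 489, with 141 list members. The fit of Epi libraries only gave 727 calls (135 higher, 592 lower). Library weights gave 1809, of them 456 higher. Restricting to genes with a mean of at least 10 TPM over the 6 libraries, a choice made after seeing the data, gave 556 calls (100 higher, 456 lower). The 465 differences between lineages became 1214 (578 and 636) in a fit of the 12 libraries and 1571 (748 and 823) with library weights. The cause of these shifts was not tested, except that the 10 TPM minimum tests fewer genes.

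Leaving out 1 library at a time gave 869 to 1348 calls (151 to 193 higher, 682 to 1155 lower), 60 to 87 list members and 373 to 487 differences between lineages (131 to 169 and 236 to 319). The lowest total came without replicate 2 of E5.0 and the highest without replicate 1 of E5.0. With the replicate number as a block (replicate block) there were 1182 calls, 210 higher and 972 lower, and 461 differences between lineages. Across the ages the numbers are not shown to pair the Epi libraries. Deviations of same-numbered libraries correlated at 0.128, 0.060 and 0.003, and not every library correlated best with its own number. Within an age, replicate 1 had the lowest Rn45s share in both lineages. At E4.75 replicates 1, 2 and 3 held 0.798%, 1.11% and 1.07% in Epi and 0.806%, 1.09% and 1.09% in primitive endoderm. At E5.0 they held 0.370%, 1.17% and 1.19%, and 0.468%, 1.22% and 1.14%. A pairing of the lineages within an age was not tested. Of 87 called genes among the 151 named by rule, 50 kept the call under every alternative, and none of the alternatives reversed a direction. Depth cannot be read from TPM, so which of the 237 falls to 0 reflect few reads cannot be told.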

Other observations

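Imprinted genes, expressed from 1 parental allele, were listed after earlier results were known. Of 25 tested H19, Phlda2, Peg10 and Grb10 were called higher by limma, against 1.4% of all genes. Cdkn1c, Impact and Gnas were called lower, against 6.21%, and the list's median was 0.03 against -0.06 over all genes. Leaving out 1 library at a time left 2 to 4 called higher and 3 lower. Several of these genes are also well known from trophoblast, whose part in the values was not tested.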
